A study of Mus musculus with 6 samples.

Results

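The T cell receptor complex, the co-receptor and the kinases that act directly below it were followed as 9 genes, taken by symbol from the 21139 genes of the deposited table: Cd3e, Cd3d, Cd3g, Cd247, Cd4, Lck, Zap70, Lat and Cd5. All 9 passed the filter on low counts. The libraries came from spleen CD4+ T cells of C57BL/6J mice and were activated in culture for 2 days with antibodies to CD3 and CD28 in every sample. In 3 libraries the cells were also given CpdA, which the series names as an agonist of the fatty acid receptor Gpr120, at a labelled 20 whose unit is written as microm and read here as µM. The other 3 libraries had medium alone, and the sources used here do not say whether that medium held a vehicle. Because the stimulus was an antibody to CD3, the protein that Cd3e encodes belongs to the complex through which every culture was stimulated. The design asks how the agonist alters gene expression in these cells.

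The T cell receptor has an antigen-binding alpha and beta chain with no signalling tail of their own. They are joined to the CD3 epsilon, delta and gamma chains and to the zeta chain encoded by Cd247, whose tails carry tyrosine motifs. Lck, a Src-family kinase carried by the CD4 co-receptor, phosphorylates those motifs; Zap70 docks on them and phosphorylates the scaffold Lat, on which the downstream enzymes gather. CD5 is a surface receptor that associates with the complex and dampens its signal.

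With CpdA, 6 of the 9 genes fell, 2 rose and 1 did not pass the test. Zap70 fell furthest, with a change of -24.6%, followed by Cd247 (-17.8%), Cd3e (-16.9%), Cd3g (-13.6%), Cd4 (-12.8%) and Cd3d (-8.0%). Cd5 and Lat rose, by 10.5% and 7.95%, and Lck had a change of -3.07% that did not pass. Every one of these changes was well under 1.5-fold in size, and the median log2 fold change of the 9 was -0.20, against 0.0004 over all 13507 genes tested. Of all tested genes 33.2% were called, 16.5% higher and 16.7% lower. Highly counted genes were called more often: among the 1269 genes with a mean level at or above that of the lowest of the 9, 59.3% were called, 31.1% higher and 28.1% lower. CpdA and medium libraries did not overlap for 8 of the 9 genes, 2 above and 6 below, where 43.9% of all tested genes did not overlap (22.9% above and 21% below). The share without overlap was not taken among the highly counted genes alone. Calls are at an adjusted p under 0.05 in edgeR's quasi-likelihood test, adjusted over all tested genes.

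**Figure D1:**
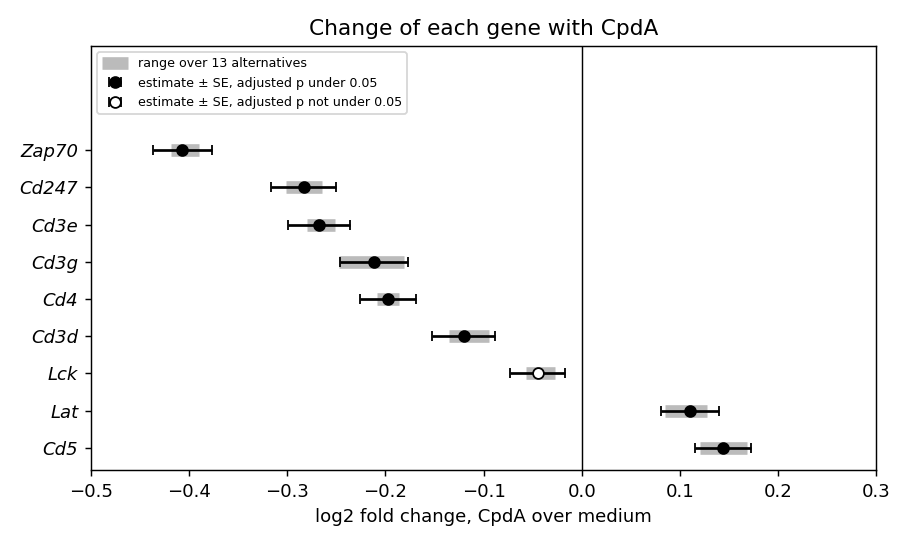
Log2 fold change of CpdA over medium for each gene (points, with SE as bars), with the range over the 13 alternative settings in grey. Filled points passed the test, the open point (Lck) did not; Zap70 lies lowest at -0.41 and Cd5 highest at 0.14.

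Library totals ran from 20247761 to 25952169 counts, and each of the 9 genes had between 3037 and 16064 counts in every library, so the counting error of a single value, at each gene's mean count, was 0.843% to 1.69%. Within each group the libraries differed by more than sampling noise (2.18 to 4.18 for the chi-square divided by its degrees of freedom). The labels do not state that the replicates are separate mice or cultures; p-values thus reflect the spread of these samples alone, which may be technical. Against its markers the labelled cell type held in that Cd4 was far above both CD8 genes per unit of gene length. Cd4 was at 107.4 ± 0.7 FPKM with CpdA and 122.3 ± 1.8 FPKM in medium (SD, n = 3 each). Cd8a was at 0.533 ± 0.140 FPKM with CpdA and 0.400 ± 0.035 FPKM in medium. Cd8b1 was higher than Cd8a, at 4.86 ± 0.49 FPKM with CpdA and 4.98 ± 0.40 FPKM in medium. FPKM is the count scaled by the authors to gene length and library total. In bulk libraries, fewer T cells and less of a transcript per cell cannot be told apart.

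The CD3 chains sit together on chromosome 9 within 40019 bases (GRCm38, from the deposited coordinates). Cd3g (44969572 to 44980431, minus strand) and Cd3d (44981793 to 44987052, plus strand) point away from each other with starts 1362 bases apart, and Cd3e (44998743 to 45009590, minus strand) lies beyond them. Cd3e, whose product pairs with both CD3 delta and CD3 gamma, was at 115.9, 116.4 and 118.1 FPKM with CpdA, against 142.8, 139.6 and 136.7 FPKM in medium. The highest CpdA library was thus well below the lowest medium library, and log2 fold change and SE were -0.27 ± 0.03 (adjusted p = 7.6e-09, edgeR's quasi-likelihood test).

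Cd3g, the gamma chain, was at 138.7, 138.0 and 137.3 FPKM with CpdA, against 160.8, 150.8 and 164.7 FPKM in medium. The coefficient of variation was 0.486% over the CpdA libraries and 4.52% over the medium libraries, and the medium value was the highest of any of the 9 genes in either group. Its log2 fold change and SE were -0.21 ± 0.03 (adjusted p = 5.3e-06, edgeR). Cd3d, the delta chain, was at 145.2, 146.0 and 139.2 FPKM with CpdA, against 151.4, 156.2 and 157.0 FPKM in medium. The groups did not overlap, but the gap was the narrowest among the genes that fell, with a log2 fold change (± SE) of -0.12 ± 0.03 (adjusted p = 0.0030, edgeR). Without CpdA replicate 3, the lowest of its group, Cd3d changed by -0.09 and missed the threshold (adjusted p = 0.0534, edgeR).

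As these 3 genes are neighbours that all fell, the 250 bases before the start of each are shown, 5′ to 3′ on the strand of the gene, from RefSeq on GRCm38.p6. Capitals mark any match, on either strand, to 5 motifs. The first was AGGAAG, a longer string around the GGAA core that ETS factors bind, so GGAA outside AGGAAG is not marked. For RUNX factors the string TGTGGT was searched, and for basic helix-loop-helix factors the E-box CAGCTG. For GATA factors the string AGATAA was used and for the TATA box, the promoter element near the start of some genes, TATAAA. No matches overlap in the sequences shown.
Cd3e, chr9:45009612-45009861, minus strand: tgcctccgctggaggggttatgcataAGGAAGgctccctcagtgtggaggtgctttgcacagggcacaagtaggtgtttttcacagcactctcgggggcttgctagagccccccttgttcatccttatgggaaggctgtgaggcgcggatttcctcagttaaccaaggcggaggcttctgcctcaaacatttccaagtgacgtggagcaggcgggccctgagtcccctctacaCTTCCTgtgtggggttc
Cd3d, chr9:44981536-44981785, plus strand: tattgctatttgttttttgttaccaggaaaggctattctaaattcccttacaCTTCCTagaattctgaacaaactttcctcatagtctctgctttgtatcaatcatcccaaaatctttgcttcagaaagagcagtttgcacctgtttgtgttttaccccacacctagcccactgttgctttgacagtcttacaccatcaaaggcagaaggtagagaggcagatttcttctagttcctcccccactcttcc
Cd3g, chr9:44980432-44980681, minus strand: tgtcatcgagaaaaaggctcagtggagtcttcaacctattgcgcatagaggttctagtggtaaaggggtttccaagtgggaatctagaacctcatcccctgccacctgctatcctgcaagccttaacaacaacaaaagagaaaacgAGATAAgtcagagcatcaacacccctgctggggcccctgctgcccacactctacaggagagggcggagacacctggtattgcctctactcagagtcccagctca
Cd3e held AGGAAG at positions -224 and -17 from the RefSeq start (first base of the match) and Cd3d held it at -198, whereas the Cd3g window held no AGGAAG and a single AGATAA at -104. RefSeq promoters were matched for 8 of the 9 genes, all but Cd4. Where RefSeq lists more than 1 start for a gene of the set, the window nearest to the deposited gene start was used. AGGAAG was present in 7 of these 8 windows, against 29.5% of the 32851 windows of the same length. Those 32851 windows are of all listed promoters, whether or not the gene was expressed in these cells, and the share among expressed genes was not taken. The RUNX string was in 1 of 8 (Lck), against 14% of all windows, and the GATA site in 1 of 8 (Cd3g), against 9.99%. The E-box (13% of all windows) and the TATA box (12.4%) were in 0 of 8. The AGGAAG matches were found in windows of genes that fell (Cd3e, Cd3d, Cd247, Zap70) and of genes that rose (Lat, Cd5).

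Cd247 (chromosome 1, 165788681 to 165877277, plus strand) encodes the zeta chain, which holds more tyrosine motifs than any CD3 chain. It was at 48.2, 48.3 and 50.4 FPKM with CpdA, against 58.4, 60.7 and 58.6 FPKM in medium. All CpdA libraries were below all medium libraries, with a log2 fold change (± SE) of -0.28 ± 0.03 (adjusted p = 5.5e-09, edgeR). The 3′ part of Cd247 overlaps, over 12124 bases, a gene on the other strand that the table lists as POU2F1, which had 766 to 1054 counts per library and itself fell by 0.15 on the log2 scale (adjusted p = 0.0382, edgeR). It also overlaps Gm16565 on its own strand (87 to 159 counts; log2 fold change -0.62). No source used here gives the strand setting of the counting, and how reads in these overlaps were divided was not tested; Cd247 itself had 3049 to 4243 counts.

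Cd4 (chromosome 6, 124864692 to 124888221, minus strand), the co-receptor that binds MHC class II and brings Lck to the receptor, was at 107.9, 107.8 and 106.5 FPKM with CpdA, against 120.4, 122.7 and 123.9 FPKM in medium. The coefficient of variation was at most 1.49% in either group, and the groups stood clearly apart, with a log2 fold change (± SE) of -0.20 ± 0.03 (adjusted p = 5e-07, edgeR). Lck (chromosome 4, 129548344 to 129573641, minus strand), the kinase bound to the CD4 tail, was at 203.0, 200.6 and 202.0 FPKM with CpdA, against 206.2, 211.6 and 202.8 FPKM in medium. One medium library lay within the range of the CpdA libraries, and Lck gave -0.04 ± 0.03 (log2 fold change ± SE; adjusted p = 0.23, edgeR). Over the 13 alternative settings it ran from -0.06 to -0.03 and was called in 0 of them, which does not show that Lck was the same in both groups. RefSeq lists 2 start regions for Lck, and gene-level counts do not separate transcripts from either.

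Zap70 (chromosome 1, 36761798 to 36782816, plus strand), the kinase that docks on the phosphorylated CD3 and zeta tails, was at 102.2, 98.8 and 102.0 FPKM with CpdA, against 135.7, 133.0 and 130.5 FPKM in medium. The gap between the groups was several times the range within either, and log2 fold change and SE were -0.41 ± 0.03 (adjusted p = 4.5e-14, edgeR). In size this change exceeded that of 87.3% of all tested genes, whereas that of Cd3e exceeded 75.0% and that of Lck 17.9%. These shares include genes of low counts, whose changes are less precise, and were not taken among the highly counted genes alone. A pseudogene on the other strand, Gm18828, overlaps 1012 bases of Zap70 but had only 11 to 42 counts per library. RefSeq lists 3 start regions for Zap70, which changed most of the 9, and gene-level counts do not separate them. The 250 bases before the start given above held 1 AGGAAG match, in reverse at -134.
Zap70, chr1:36761548-36761797, plus strand: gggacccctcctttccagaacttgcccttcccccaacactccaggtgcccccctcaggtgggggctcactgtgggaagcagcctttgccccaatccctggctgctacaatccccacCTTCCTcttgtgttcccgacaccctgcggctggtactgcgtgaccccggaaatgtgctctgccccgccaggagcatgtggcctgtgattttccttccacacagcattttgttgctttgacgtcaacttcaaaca

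Lat and Cd5 went the other way. Lat (chromosome 7, 126363832 to 126369543, minus strand), the membrane scaffold that Zap70 phosphorylates, was at 335.0, 316.8 and 316.7 FPKM with CpdA, against 292.1, 303.4 and 295.6 FPKM in medium. Each CpdA library was above each medium library, with a log2 fold change (± SE) of 0.11 ± 0.03 (adjusted p = 0.0032, edgeR). CpdA replicate 1 was the highest; without it the log2 fold change was 0.08 and still passed (adjusted p = 0.0385, edgeR). Cd5 (chromosome 19, 10718143 to 10738974, minus strand), the inhibitory receptor of the complex, was at 318.9, 298.0 and 308.1 FPKM with CpdA, against 271.6, 284.7 and 275.2 FPKM in medium. Here too the groups did not overlap, and log2 fold change and SE were 0.14 ± 0.03 (adjusted p = 1e-04, edgeR). Of the genes that rose, Cd5 changed most, and its upstream window is shown for comparison with that of Zap70, with AGGAAG at -109 and -52.
Cd5, chr19:10738975-10739224, minus strand: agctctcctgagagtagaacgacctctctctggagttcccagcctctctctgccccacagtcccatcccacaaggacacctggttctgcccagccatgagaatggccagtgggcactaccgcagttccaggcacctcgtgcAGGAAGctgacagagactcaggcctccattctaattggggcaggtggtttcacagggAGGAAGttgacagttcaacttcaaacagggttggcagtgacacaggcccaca

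**Figure D2:**
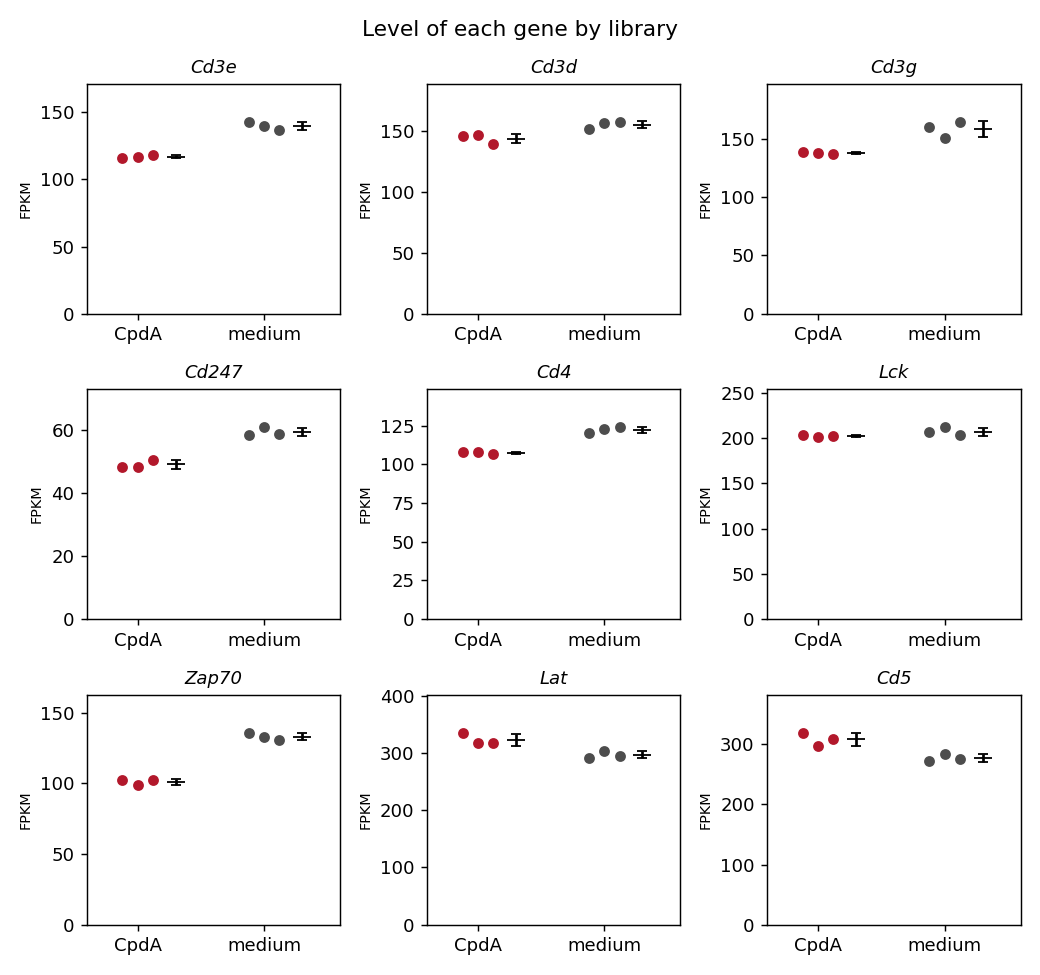
FPKM of each gene in each library (points), with the mean and SD of 3 libraries beside them; every vertical axis starts at 0. CpdA points lie below medium points for Cd3e, Cd3d, Cd3g, Cd247, Cd4 and Zap70, above them for Lat and Cd5, and overlap them for Lck.

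Per unit of length the 9 genes were among the higher expressed genes of these cells, from the 90.1st percentile of tested genes for Cd247 to the 98.7th for Lat. With CpdA the order was Lat (322.9 ± 10.5 FPKM), Cd5 (308.3 ± 10.4), Lck (201.9 ± 1.2), Cd3d (143.5 ± 3.7), Cd3g (138.0 ± 0.7), Cd3e (116.8 ± 1.2), Cd4 (107.4 ± 0.7), Zap70 (101.0 ± 1.9) and Cd247 (49.0 ± 1.3; SD, n = 3). Lat and Cd5 overlapped and so were not separable in that group. In medium the order was Lat (297.0 ± 5.8 FPKM), Cd5 (277.1 ± 6.8), Lck (206.9 ± 4.4), Cd3g (158.8 ± 7.2), Cd3d (154.9 ± 3.0), Cd3e (139.7 ± 3.0), Zap70 (133.0 ± 2.6), Cd4 (122.3 ± 1.8) and Cd247 (59.2 ± 1.3; SD, n = 3). Cd3g and Cd3d overlapped there. Zap70 therefore ranked below Cd4 with CpdA and above it in medium, with no overlap between the pair in either group.

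Ratios of genes within a library do not depend on how libraries are scaled, and 6 were examined with exact two-sided permutation tests, which with 3 libraries a group cannot go below p = 0.1. The ratio of Zap70 to Lck, successive kinases of the pathway, was 0.504, 0.492 and 0.505 with CpdA, against 0.658, 0.629 and 0.643 in medium (ratios of FPKM). The groups were far apart relative to their spread, with a log2 difference of -0.36 (exact permutation p = 0.1; adjusted p = 0.15 over the 6 ratios). Cd4 to Lck was 0.532 ± 0.005 with CpdA and 0.592 ± 0.017 in medium (SD, n = 3 each; log2 difference -0.15; exact permutation p = 0.1, adjusted 0.15).

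Within the complex, the zeta and epsilon chains had a ratio of 0.419 ± 0.007 with CpdA and 0.424 ± 0.014 in medium, with overlapping libraries (Cd247 to Cd3e; SD, n = 3 each; log2 difference -0.02; exact permutation p = 0.6, adjusted 0.6). Cd3g to Cd3e also overlapped, at 1.18 ± 0.02 with CpdA and 1.14 ± 0.06 in medium (SD, n = 3 each; log2 difference 0.06; exact permutation p = 0.4, adjusted 0.48). Cd3d to Cd3e was 1.25, 1.25 and 1.18 with CpdA, against 1.06, 1.12 and 1.15 in medium. Every CpdA library was higher, though the closest pair was 1.18 and 1.15 (log2 difference 0.15; exact permutation p = 0.1, adjusted 0.15). Cd5 to Cd3e, the inhibitory receptor relative to a chain of the complex it joins, was 2.75, 2.56 and 2.61 with CpdA, against 1.90, 2.04 and 2.01 in medium. The libraries of the groups were widely separated (log2 difference 0.41; exact permutation p = 0.1, adjusted 0.15).

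**Figure D3:**
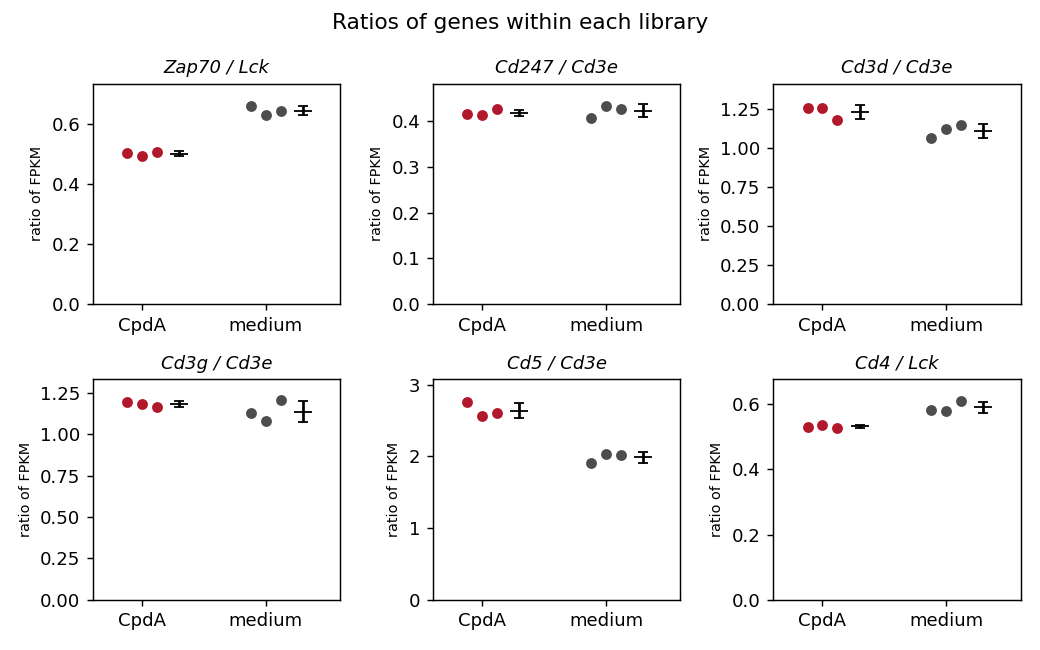
Ratio of FPKM of each pair of genes within each library (points), with the mean and SD of 3 libraries beside them; axes start at 0. CpdA libraries lie apart from medium libraries for Zap70 to Lck, Cd3d to Cd3e, Cd5 to Cd3e and Cd4 to Lck, and overlap them for Cd247 to Cd3e and Cd3g to Cd3e.

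The 9 genes also differed in which profile over the 6 libraries was most like theirs. Likeness was measured as the root mean square difference of log2 CPM centred on each gene's mean. The other genes searched were 6587 at or above the median level, leaving out pseudogenes and genes with clone-type names (such as Gm numbers or Rik). Within the set of 9, Cd3e and Cd247 were nearest to each other (0.031), as were Lat and Cd5 (0.022), and the nearest to Cd3g was Cd4 (0.040). Outside it, the nearest to Zap70 was Tg (0.018), which had 203.0 CPM with CpdA and 265.7 CPM in medium. Tg spans Sla on the other strand over 51011 bases, so reads of these genes may have been divided in either way. The nearest to Cd3e was Rnf157 (0.014), to Cd247 Ccni (0.014), to Cd3g Zadh2 (0.016), to Cd3d Pmvk (0.015), to Cd4 Primpol (0.0065), to Lck Slc2a1 (0.0063), to Lat Nsl1 (0.011) and to Cd5 Kpna3 (0.0088). Primpol overlaps Cenpu on the other strand over 4429 bases, so its reads too may have been divided in either way. With 6 libraries in 2 groups, likeness of profiles includes the size of the difference between the groups.

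Around these genes, 65 others of the receptor pathway were read from the same fit. Of these 29 fell, 8 rose and 28 did not pass, so that 56.9% were called. This share was near the 59.3% of the highly counted genes given above and higher than the 33.2% of all tested genes. Many of the 65, such as Txk and Trat1, had lower levels than those highly counted genes, so neither share is matched to the 65 by level. By direction, 44.6% fell and 12.3% rose. Beside these stand 28.1% and 31.1% of the highly counted genes, and 16.7% and 16.5% of all tested genes. The median log2 fold change of the 65 was -0.06. Without CpdA replicate 3, 4 rose in place of 8, and likewise 4 without medium replicate 1. Sizes given for these genes are on the log2 scale. Of the receptor's own 3 constant region genes, 1 fell: Trac, of the alpha chain, by 0.20 (126.0 ± 4.5 CPM with CpdA and 144.0 ± 3.4 CPM in medium; SD, n = 3; adjusted p = 1.5e-05, edgeR). The beta chain genes Trbc1 and Trbc2 were at 0.03 (adjusted p = 0.47) and 0.04 (adjusted p = 0.38, edgeR) on the log2 scale. Trbc2 was higher in each CpdA library than in each medium library, whereas the groups overlapped for Trbc1. These beta chain genes are nearly identical, so reads may have been split between them.

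Among 6 surface partners, 3 rose and 2 fell. Ptprc, the CD45 phosphatase that primes Lck, fell by 0.15 and the co-stimulatory receptor Cd28 by 0.12, while Cd6, a relative of Cd5, rose by 0.12, the adhesion receptor Cd2 by 0.09 and the CD45-associated Ptprcap by 0.12. For Cd6 and Ptprcap the libraries of the groups overlapped. Ptprcap missed the threshold without CpdA replicate 1 (log2 fold change 0.10, adjusted p = 0.0706), without CpdA replicate 3 (0.10, 0.0837) and without medium replicate 1 (0.09, 0.0888; edgeR). Of 6 other proximal kinases, 4 fell and 0 rose; without CpdA replicate 3 the number that fell was 2. The Tec-family kinase Txk, at 5.64 ± 0.73 CPM with CpdA and 9.33 ± 1.13 CPM in medium (SD, n = 3), had the furthest fall, by 0.73. The Src-family kinase Fyn fell by 0.13 and Prkcq, the protein kinase C theta gene, by 0.14; Prkcq missed the threshold without CpdA replicate 3 (log2 fold change -0.10, adjusted p = 0.0634, edgeR).

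In the list of 17 adaptors and exchange factors, 7 fell and 3 rose; without medium replicate 2 the number that fell was 4. Fyb, which links the receptor to integrins, fell by 0.44, the Lck-binding adaptor Sh2d2a by 0.31 and Wipf1, a partner of the actin regulator WASP, by 0.27. Lcp2, the SLP-76 adaptor that joins Lat, rose by 0.10 (405.7 ± 9.4 CPM with CpdA and 375.4 ± 8.1 CPM in medium; SD, n = 3). Trat1, a transmembrane adaptor of the receptor with low levels in both groups, rose by 0.61 (7.0 ± 0.8 CPM with CpdA and 4.6 ± 0.2 CPM in medium; SD, n = 3). Grap, a relative of Grb2, rose by 0.09 and lost its call in 8 of the 13 alternatives. Of 13 downstream effectors, 5 fell and 0 rose, with the log2 fold change at -0.27 for Malt1, the protease of the NF-kB branch, -0.31 for the transcription factor gene Nfatc1 and -0.25 for the phospholipase gene Plcg1.

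The 20 inhibitors of the pathway had 10 members that fell and 2 that rose. Ptpn22, a phosphatase that acts on Lck and Zap70, was at 80.8, 81.8 and 81.6 CPM with CpdA, against 125.3, 116.3 and 121.1 CPM in medium. Its CpdA libraries lay far below the medium ones, with a log2 fold change (± SE) of -0.58 ± 0.04 (adjusted p = 2.5e-15, edgeR). The ubiquitin ligase gene Cblb fell by 0.36, and Ubash3b, a phosphatase that acts on Zap70, fell by 0.41. Sla, an adaptor that lowers receptor levels, and Pag1, which anchors the inhibitory kinase Csk, rose by 0.11 and 0.20. Sla missed the threshold without CpdA replicate 3 (log2 fold change 0.10, adjusted p = 0.071), without medium replicate 1 (0.10, 0.0557) and without medium replicate 3 (0.09, 0.0863), and Pag1 without CpdA replicate 3 (0.11, 0.262) and without medium replicate 1 (0.14, 0.139; edgeR). Pag1 also missed it with DESeq2 (adjusted p = 0.0669), and its CpdA and medium libraries overlapped. The number of inhibitors that rose was thus 0 without CpdA replicate 3 or medium replicate 1, 1 without medium replicate 3 or with DESeq2, and 4 without medium replicate 2. Sla, at 152 CPM with CpdA and 140 CPM in medium, lies within Tg on the other strand. Tg had more counts and fell, at 203 CPM with CpdA and 266 CPM in medium. Reads of these genes may have been divided in either way, and whether this sets the direction of Sla was not tested. Csk was at 0.07 on the log2 scale (adjusted p = 0.11, edgeR), and it passed without CpdA replicate 2 (0.11, adjusted p = 0.0132) and without medium replicate 2 (0.09, adjusted p = 0.0473).

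**Figure D4:**
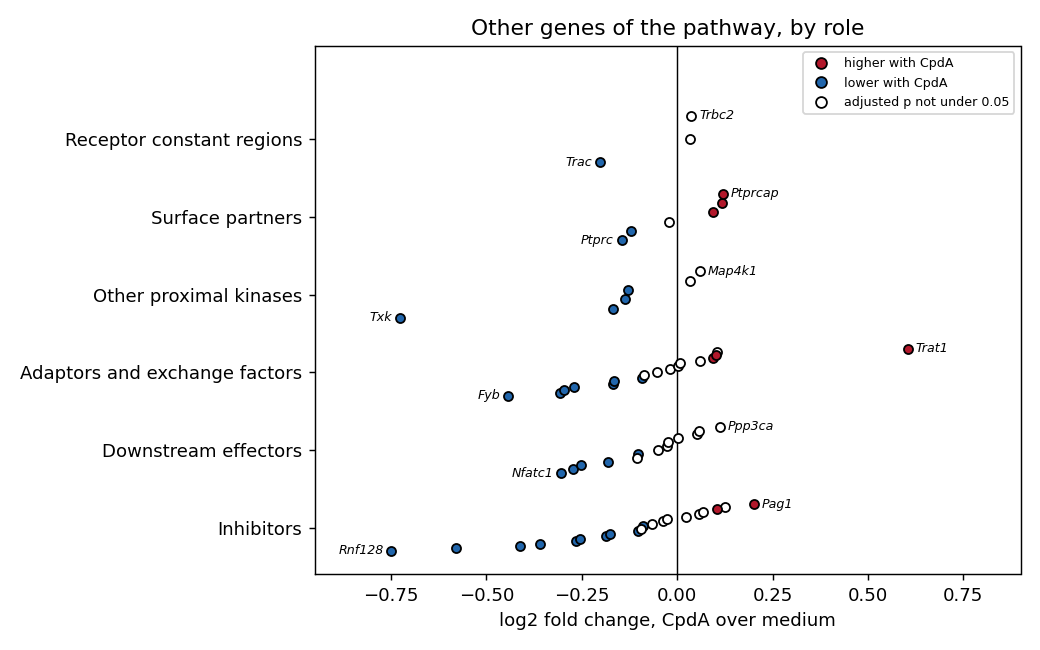
Log2 fold change of CpdA over medium for 65 other genes of the receptor pathway, 1 point per gene, in 6 roles; the genes at the ends of each role are named. Red points were higher and blue points lower with CpdA at an adjusted p under 0.05, and open points did not pass; the inhibitors hold 10 blue and 2 red points of 20.

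Markers of other cell types were looked at beside these genes. Summed per library, B cell markers (Cd79a, Cd79b, Ms4a1 and Cd22) were at 18.8 to 21.5 CPM with CpdA and 17.5 to 22.9 CPM in medium, the CD8 T cell markers Cd8a and Cd8b1 at 7.33 to 9.40 CPM with CpdA and 7.99 to 8.84 CPM in medium, and NK cell markers, nearly all Gzma, at 48.3 to 50.8 CPM with CpdA and 50.3 to 55.5 CPM in medium. These 3 sums overlapped between the groups. The NK sum says little of the NK genes other than Gzma. Among those, Klre1 was lower in each CpdA library, at 0.047, 0.231 and 0.159 CPM against 0.346, 0.296 and 0.306 CPM in medium. Klre1 had only 1 to 7 counts per library and was not tested, and Ncr1 and Klrb1c overlapped between the groups. The gamma delta T cell genes Tcrg-C1, Tcrg-C2 and Tcrg-C4 summed to 0.0794 to 0.280 CPM with CpdA and 0.423 to 0.525 CPM in medium, and the myeloid genes Lyz2, Csf1r, Cd14 and Itgam to 0.420 to 0.635 CPM with CpdA and 0.719 to 1.01 CPM in medium. Both of these sums were lower with CpdA in every library. They were at low levels beside the 0.148 CPM that 3 counts give in the least deep library (counting error only). Tcrg-C1 and the NK marker Klrb1c were at 0 in all CpdA libraries, but both were also at 0 in medium replicate 2, and Klrb1c in medium replicate 3. Of the 4 B cell genes Ms4a1 rose, by 0.54 on the log2 scale, while Cd79a (-0.17), Cd79b (-0.15, lower in each CpdA library) and Cd22 (0.01) did not pass the test. Of the 4 myeloid genes Itgam fell, by 1.18 on the log2 scale, at 0.276 CPM with CpdA and 0.628 CPM in medium. The lower myeloid sum rested on Itgam: Lyz2, Csf1r and Cd14 were too low to be tested, and their libraries overlapped between the groups. The part of these shifts in the values above was not tested.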

How the data were processed

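RNA was measured in 6 libraries of cultured mouse CD4+ T cells, grouped from the labels as CpdA (3) and medium (3). Per the labels' protocols, 1 µg of RNA per library was prepared with an NEBNext Ultra kit. Raw read counts per gene were deposited by the authors, per the file headers. The FPKM values deposited by the authors were given back from count, gene length and library total to a relative difference of 1.86e-07. CASAVA 1.8, GRCm38 and mm10 are named in the submitters' processing notes; no source used here gives the aligner, counter or strand setting.

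Counts were tested in R 4.3.3 with edgeR 4.0.16: TMM scaling, robust quasi-likelihood fit, no covariates, and genes kept by filterByExpr (minimum count 10, minimum total 15). P-values were Benjamini-Hochberg adjusted over 13507 genes and called under 0.05; each log2 fold change is CpdA over medium. CPM is the count scaled to the library total, and profiles used log2(CPM + 0.5). Alternatives were RLE size factors, library totals alone, DESeq2 1.42.0, limma-voom (limma 3.58.1), other count filters, a replicate block and leaving out each library. Same-numbered libraries of the groups did not deviate together, so the numbers were not taken as pairs. The 9 genes, the pathway and marker lists and the tests were chosen with earlier results of these data known, and the promoter motifs after the fit was seen. From each pathway list the text names up to 3 called genes a direction by smallest p, a fixed set (Trac, Trbc1, Trbc2, Cd28, Ptprc, Fyn, Lcp2, Plcg1, Csk, Ptpn22) and the gene of nearest profile to each of the 9. Of the lists, 2 genes are not reported here and were left out of the counts and sums. The table had 0 columns of per-sample values without a sample.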

Additional observations from a re-analysis of the deposited data

How the results depend on the processing

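Of the 9 genes, the 2 that rose (Lat and Cd5) were called higher in all 13 alternatives. The 6 that fell were called lower in all except without CpdA replicate 3, where 5 were called, Cd3d being lost. With 1 library left out, the number of called genes was 2 for those that rose and 5 to 6 for those that fell. The called genes over the whole table ranged from 3660 to 4336 with 1 library left out and were 3448 with DESeq2, against 4483 as reported. Of the 65 pathway genes, 4 to 10 rose and 23 to 28 fell with 1 library left out; 4 rose without CpdA replicate 3 and 4 without medium replicate 1, against 8 as reported. The ratio of Cd247 to Cd3e turned to 0.0026 on the log2 scale without medium replicate 2 and ran from -0.0423 to 0.0026 with 1 library left out; the cause was not tested. The ratios of Zap70 to Lck (-0.379 to -0.346), Cd4 to Lck (-0.167 to -0.129), Cd3d to Cd3e (0.115 to 0.177), Cd3g to Cd3e (0.0208 to 0.0991) and Cd5 to Cd3e (0.381 to 0.433) kept their sign; FPKM in place of counts gives the same differences by construction. With the replicate number as a block, 3936 genes were called, with 2 of the 9 higher and 6 lower. Same-numbered libraries had correlations of -0.219, -0.349 and -0.0485 in their deviations from the group means, so the block is a matter of labels only. Between libraries of different numbers the correlations ran from -0.0788 (CpdA replicate 1 and medium replicate 3) to 0.281 (CpdA replicate 1 and medium replicate 2). Whether libraries share a source under other numbers was not tested.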
